A study of Sciaenops ocellatus with 36 samples.

Results

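Myelin is the lipid-rich sheath that oligodendrocytes in the brain and spinal cord, and Schwann cells along peripheral nerves, wrap around axons. The 8 genes described here mark that lineage and its product: the myelin proteins MBP, MAG, CLDN11 and CNP, the transcription factors OLIG1, OLIG2 and SOX10, and the neuregulin receptor ERBB3. They were chosen by name, as the rows whose symbol equals a listed gene, and they make up 8 of the 56346 rows of each deposited count table. Their GeneIDs in the files are 4155 (MBP), 4099 (MAG), 5010 (CLDN11), 1267 (CNP), 116448 (OLIG1), 10215 (OLIG2), 6663 (SOX10) and 2065 (ERBB3). The rows carry human symbols although the animal is a marine fish, the red drum (Sciaenops ocellatus), so each symbol stands for the fish transcripts that were assigned to it, paralogs may be merged, and no position in the fish genome is given.

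In vertebrate embryos the ventral progenitors of the spinal cord that express OLIG2 form under hedgehog signalling and give rise to motor neurons and to oligodendrocyte precursors. SOX10 is switched on in those precursors and also in the neural crest, which produces Schwann cells and pigment cells, and it activates myelin genes in both glial types. ERBB3 receives neuregulin signals from axons, and in zebrafish it is needed for Schwann cell precursors to follow growing nerves. MAG, MBP, CLDN11 and CNP belong to the sheath itself and are made as myelination begins.

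The samples were whole animals at 24, 48 and 72 hours post-fertilization (hpf), pooled at 30 embryos or larvae per sample. The exposed groups were kept in water with source oil (labelled Mass, a non-weathered surrogate for Deepwater Horizon source oil) at 0.27%, or with naturally weathered slick oil at 2.50%, and each oil had its own series of clean-water controls (concentration 0). All embryos, controls included, had first been treated with formalin against bacteria. The labels describe 36 samples, 3 in each of 12 groups. Usable columns were found for 29 libraries in 10 groups, 3 in each but 1: source oil at 24 and 72 hpf, slick oil at 24, 48 and 72 hpf, controls of the source series at all 3 ages, and controls of the slick series at 48 hpf and, with only 2 libraries, at 24 hpf. By their header names, the columns placed under source oil at 48 hpf hold slick-series controls instead, and those placed as controls of slick oil at 72 hpf hold the controls of the source series. A 48 hpf library also stands among the controls of slick oil at 24 hpf and was left out there. Animals in source oil at 48 hpf and unexposed slick-series animals at 72 hpf are not analysed here.

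Libraries held 4771973 to 5880716 counts where source oil was tested at 24 hpf and 2532771 to 3280939 counts in the 5 other tables. The table of source oil at 24 hpf also credits reads to different symbols: 1060 rows had counts only in it and 754 only elsewhere. Levels are therefore not compared between it and the rest, and age is followed only in the other 23 libraries. CYP1A1, the cytochrome P450 induced by oil hydrocarbons, was called in all 5 oil comparisons, 3.57 to 4.01 log2 units above controls, so the libraries differ in the direction of their labels. Levels are given as CPM, a count scaled by its library size, after TMM scaling, which corrects for library composition. A change was called at an adjusted p under 0.05 in edgeR's quasi-likelihood test with Benjamini-Hochberg adjustment over all genes tested. Whether the replicate pools were drawn from different spawns or tanks is not in the labels, so p-values measure only the spread between these samples, which may be technical.

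Not all 8 genes were measurable. MBP, the basic protein that compacts the sheath, and OLIG1, a partner of OLIG2 in oligodendrocyte maturation, had 0 counts in all 29 libraries, which allows up to 0.51 to 1.18 CPM per library (3 counts of the total, counting error only). CNP, a phosphodiesterase of uncompacted myelin, had 122 counts, all in the 6 libraries of the 24 hpf source-oil table and 0 in the other 23. CLDN11, the claudin that seals the layers of central myelin, showed the opposite pattern, with 0 counts in that table and 40 counts over 20 of the other 23 libraries. The remaining 4 genes were found more widely: MAG had 277 counts, of which 7 lay in the 24 hpf source-oil table, OLIG2 had 961, ERBB3 had 4022 and SOX10 had 8694. Whether the 0 counts come from the animals or from the assignment of fish reads to human symbols was not tested, and 44011 of the 56346 rows (78.1%) had 0 counts in all 29 libraries.

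Among unexposed animals, MAG and ERBB3 increased with age, OLIG2 was highest at 24 hpf, and SOX10 peaked at 48 hpf. MAG, the adhesion protein on the axon-facing side of the sheath, had 0.37 and 0.34 CPM in the slick-series controls at 24 hpf (1 count in each). At 48 hpf it had 2.85, 4.12 and 2.92 CPM in the slick-series controls and 3.60, 2.75 and 2.69 CPM in the source-series controls. At 72 hpf the source-series controls had 5.92, 6.22 and 10.3 CPM. No age overlapped the next in these controls, and the counts behind the values were 8 to 12 per library at 48 hpf and 16 to 29 at 72 hpf.

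The 48 hpf slick-series controls held 29 MAG counts against 2 in the 24 hpf controls, a ratio of 9.27 after scaling with an exact 95% interval of 2.34 to 80.1 (Clopper-Pearson, counting error only). At so few counts the gene did not pass the filter on low counts at this step, and with no filter edgeR gave a log2 fold change of 3.08 (SE 0.78, adjusted p = 0.000994). Over the next step MAG was 2.47 times higher at 72 hpf than at 48 hpf in the source-series controls, a log2 fold change of 1.30 (SE 0.33, 95% interval 0.62 to 1.99, adjusted p = 0.00428). It entered that test through its 72 hpf libraries, so its passing the filter is itself tied to the rise. Without the 72 hpf control library numbered 9 in the headers, the highest of the 3, the log2 fold change was 1.00 and the adjusted p 0.0509. Because whole animals were pooled, more glial cells, more RNA per glial cell and RNA from other cells cannot be told apart. This holds here and for every later result.

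CLDN11 stayed near the limit of detection at every age. It had 1 and 0 counts in the slick-series controls at 24 hpf, 0 to 2 counts in the 6 control libraries at 48 hpf, and 3, 7 and 1 counts in the source-series controls at 72 hpf. The summed counts were 11 in source-series controls at 72 hpf against 5 at 48 hpf, a ratio of 2.53 after scaling with an exact 95% interval of 0.811 to 9.30 (Clopper-Pearson, counting error only), so a change with age was not detectable at this depth.

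ERBB3 had 29.6 and 31.1 CPM in the slick-series controls at 24 hpf. At 48 hpf it had 46.5, 39.5 and 50.0 CPM in the slick-series controls and 42.6, 42.8 and 38.6 CPM in the source-series controls. At 72 hpf the source-series controls had 73.3, 73.5 and 60.6 CPM. These ages did not overlap, and each step passed the test: ERBB3 was 1.5 times higher at 48 hpf than at 24 hpf (log2 fold change 0.59, SE 0.14, adjusted p = 0.00127) and 1.66 times higher at 72 hpf than at 48 hpf (log2 fold change 0.73, SE 0.12, adjusted p = 4.23e-05).

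OLIG2, which specifies the progenitors of motor neurons and oligodendrocytes, had 20.4 and 19.8 CPM in the slick-series controls at 24 hpf. At 48 hpf it had 5.37, 4.47 and 7.67 CPM in the slick-series controls and 8.19, 6.42 and 6.38 CPM in the source-series controls. At 72 hpf the source-series controls had 3.33, 8.55 and 4.63 CPM. OLIG2 fell at 48 hpf to 0.292 times its 24 hpf level (log2 fold change -1.78, SE 0.25, 95% interval -2.28 to -1.27, adjusted p = 4.99e-07). Its 72 hpf and 48 hpf controls overlapped, and the later step gave a log2 fold change of -0.36 (95% interval -1.02 to 0.29, adjusted p = 0.417).

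SOX10 had 72.9 and 69.6 CPM in the slick-series controls at 24 hpf. At 48 hpf it had 96.7, 95.5 and 100 CPM in the slick-series controls and 79.9, 85.9 and 81.0 CPM in the source-series controls. At 72 hpf the source-series controls had 63.3, 66.9 and 58.5 CPM. Both steps passed the test, in opposite directions: SOX10 was 1.38 times higher at 48 hpf than at 24 hpf (log2 fold change 0.46, SE 0.10, adjusted p = 0.000411) and fell at 72 hpf to 0.759 times its 48 hpf level (log2 fold change -0.40, SE 0.10, adjusted p = 0.00539). The 72 hpf controls lay below the 24 hpf controls in level, but these belong to different series and that pair was not tested.

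Against the background, all 3 genes tested between 48 and 24 hpf were called where 47% of the 9180 genes tested were, and 3 of the 4 tested between 72 and 48 hpf were called where 30.8% of 9117 were. With so many genes changing at these ages, a call is not particular to the glial genes. Controls of the source and slick series were also compared with each other at 48 hpf, where 4.45% of 9100 genes were called. Of the 3 glial genes tested, 0 were called, 1 had an unadjusted p under 0.05, and DESeq2 called 0. With so few genes tested, that lack of calls does not show that the series are alike. The gene with an unadjusted p under 0.05 was SOX10, whose source-series controls all lay below the slick-series controls (log2 fold change -0.23, 95% interval -0.42 to -0.04, adjusted p = 0.149). With the slick-series 48 hpf controls as the earlier age, the 72 hpf calls were unchanged for the 4 genes tested (log2 fold changes of 1.21 for MAG, 0.63 for ERBB3, -0.61 for SOX10 and -0.07 for OLIG2). With the 48 hpf library that stands among the deposited 24 hpf controls taken as another control, the 3 calls between 48 and 24 hpf were lost (log2 fold changes of 0.30 for SOX10, -1.31 for OLIG2 and 0.33 for ERBB3, adjusted p = 0.409, 0.375 and 0.480). That library is by its name a slick-series control of 48 hpf, so adding it mixes the ages compared. With it edgeR called no gene of all tested, against 4311 without it, so the loss is not a result about these 3 genes.

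**Figure D1:**
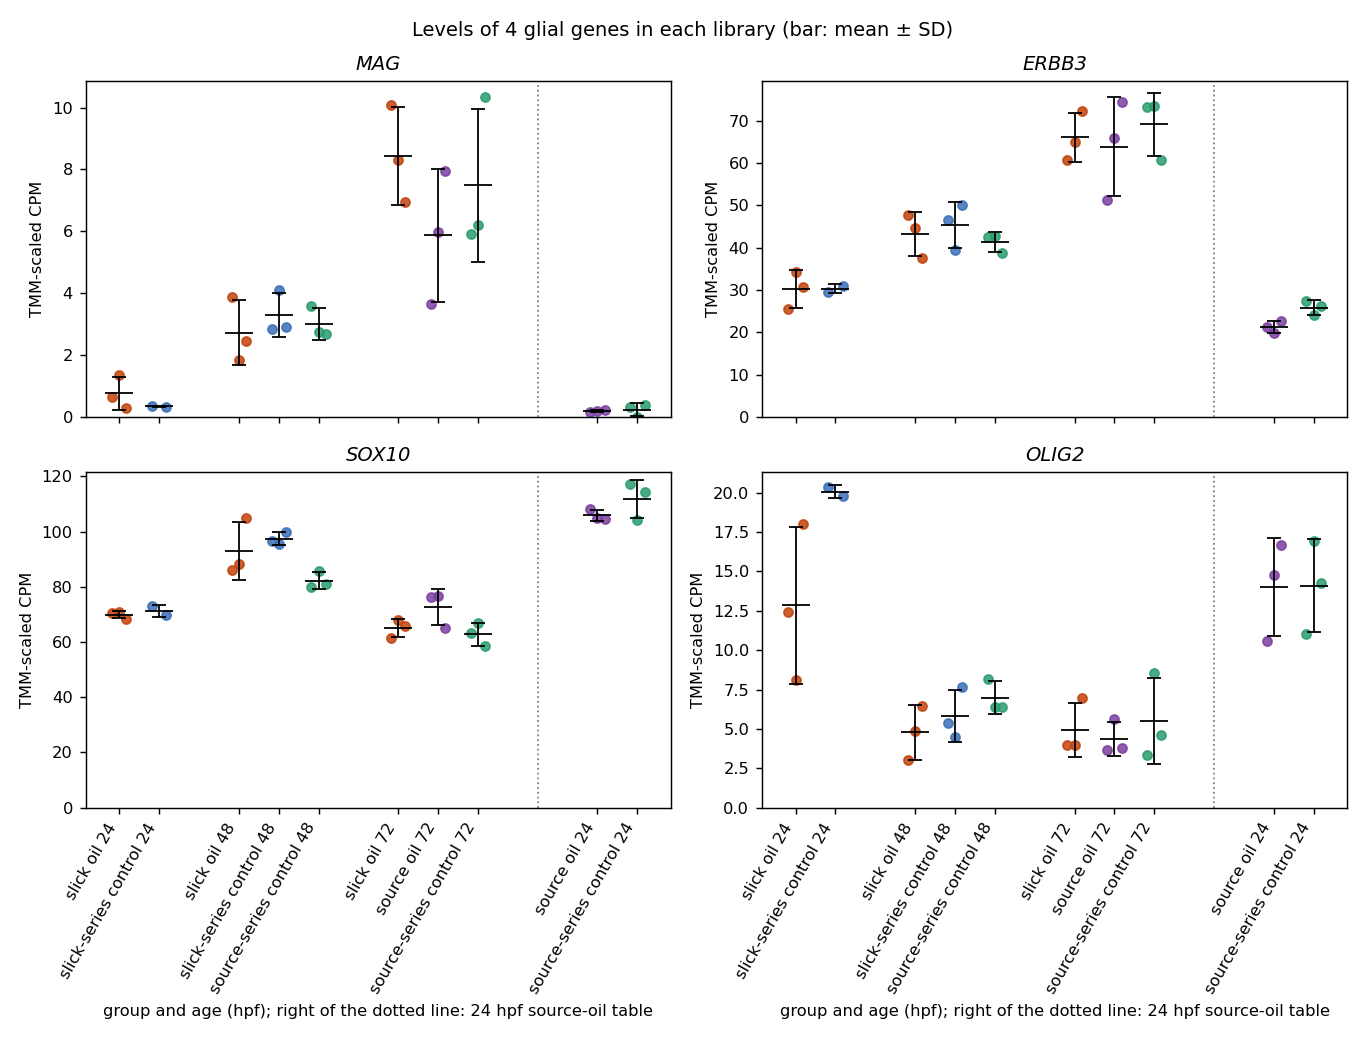
Levels of MAG, ERBB3, SOX10 and OLIG2 in each library, in TMM-scaled CPM on a linear axis, by group and age, with bars for the mean ± SD of the 2 or 3 libraries. MAG and ERBB3 are highest at 72 hpf, OLIG2 is highest at 24 hpf and SOX10 at 48 hpf, and oil and control libraries of the same age overlap except for OLIG2 in slick oil and ERBB3 in source oil at 24 hpf, where every oil library lies below its controls. The groups to the right of the dotted line come from the 24 hpf source-oil table, whose levels are not comparable with the rest.

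Animals kept in slick oil passed through the same steps, measured in libraries that share none with the controls. From 24 through 48 to 72 hpf their mean MAG level was 0.770 ± 0.528, 2.73 ± 1.06 and 8.44 ± 1.57 CPM (SD, n = 3 each), and their mean ERBB3 level was 30.2 ± 4.48, 43.3 ± 5.19 and 66.0 ± 5.81 CPM. Mean OLIG2 was 12.8 ± 4.99, 4.79 ± 1.74 and 4.96 ± 1.72 CPM, and mean SOX10 was 70.0 ± 1.38, 93.0 ± 10.4 and 65.0 ± 3.23 CPM at the same ages.

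Between 48 and 24 hpf under slick oil, all 3 genes tested were called (38.2% of the 9068 genes tested were): SOX10 rose by 0.41 and ERBB3 by 0.52 on the log2 scale, and OLIG2 changed by -1.43 (adjusted p = 0.00429, 0.00707 and 0.00183). ERBB3 lost its call without the 24 hpf slick-oil library numbered 1 (log2 fold change 0.41, adjusted p = 0.0559). MAG held 27 counts at 48 hpf against 7 at 24 hpf, a ratio of 3.62 after scaling (exact 95% interval 1.54 to 9.85). Between 72 and 48 hpf, 3 of 4 were called (41.2% of 9119 genes were): MAG rose by 1.61 and ERBB3 by 0.60, SOX10 changed by -0.52, and OLIG2 by 0.05 (adjusted p = 0.000562, 0.000524, 0.000722 and 0.927). As in the controls, MAG entered this test through its 72 hpf libraries (19 to 28 counts, against 6 to 13 at 48 hpf), so its passing the filter is tied to the rise and the 3 of 4 is no support for it. None of the called steps had overlapping groups, which is no separate support for steps picked by their calls.

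Of the 8 genes, 3 or 4 could be tested in each of the 5 oil comparisons, and none of those passed the edgeR test there. MBP, OLIG1 and CLDN11 were tested in none of them. At 24 hpf in source oil, ERBB3 had 21.4, 19.9 and 22.7 CPM in exposed embryos, against 27.4, 24.0 and 26.2 CPM in controls of the same table. Every exposed library lay below every control, a log2 fold change of -0.28 (SE 0.12, 95% interval -0.54 to -0.03), but the unadjusted p of 0.0302 became 0.238 after adjustment. SOX10 had 108, 105 and 104 CPM in exposed embryos, against 117, 104 and 114 CPM in controls (log2 fold change -0.08, 95% interval -0.24 to 0.08, adjusted p = 0.687). The exposed and control libraries overlapped.

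OLIG2 had 10.6, 14.7 and 16.7 CPM in source-oil embryos at 24 hpf, against 11.1, 17.0 and 14.3 CPM in their controls (log2 fold change -0.02, 95% interval -0.40 to 0.37, adjusted p = 0.979). CNP, measured only in this table, had 2.87, 6.13 and 4.18 CPM in exposed embryos, against 3.13, 2.89 and 3.92 CPM in controls, and the groups overlapped (log2 fold change 0.41, 95% interval -0.20 to 1.02, adjusted p = 0.557). MAG had 1 count in each of the 3 exposed libraries, against 2, 0 and 2 counts in the controls. Of the 4 genes tested, 0 were called where 5.42% of the 9793 genes tested were, 1 had an unadjusted p under 0.05, and DESeq2 called 0.

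At 24 hpf in slick oil, OLIG2 had 12.4, 8.08 and 18 CPM in exposed embryos, against 20.4 and 19.8 CPM in controls. All exposed libraries lay below both controls, and the log2 fold change was -0.61 (SE 0.24, 95% interval -1.10 to -0.12), with an unadjusted p of 0.0175 and an adjusted p of 0.275. Without the exposed library numbered 3, the one nearest the controls, the log2 fold change was -0.94 and the adjusted p 0.0137. The result therefore turns on 1 library, in a comparison with 2 controls.

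SOX10 and ERBB3 overlapped with controls at this age: SOX10 had 70.5, 71.1 and 68.4 CPM in exposed embryos, against 72.9 and 69.6 CPM in controls (log2 fold change -0.005, 95% interval -0.23 to 0.22, adjusted p = 0.993), and ERBB3 had 25.4, 34.4 and 30.8 CPM, against 29.6 and 31.1 CPM (log2 fold change 0.01, 95% interval -0.32 to 0.34, adjusted p = 0.987). MAG had 2, 4 and 1 counts in exposed embryos, against 1 and 1 in controls. Of the 3 genes tested, 0 were called where 2.19% of the 8962 genes tested were, 1 had an unadjusted p under 0.05, and DESeq2 called 0.

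At 48 hpf in slick oil, all 3 genes tested overlapped with controls. OLIG2 had 3.0, 4.90 and 6.46 CPM in exposed animals, against 5.37, 4.47 and 7.67 CPM in controls (log2 fold change -0.27, 95% interval -0.96 to 0.42, adjusted p = 0.745). SOX10 had 86.0, 88.1 and 105 CPM in exposed animals, against 96.7, 95.5 and 100 CPM in controls (log2 fold change -0.06, 95% interval -0.26 to 0.15, adjusted p = 0.833). ERBB3 gave a log2 fold change of -0.05 (95% interval -0.32 to 0.22, adjusted p = 0.885).

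MAG, which did not pass the filter at this age, had 3.90, 1.84 and 2.46 CPM in exposed animals at 48 hpf, against 2.85, 4.12 and 2.92 CPM in controls. Of the 3 genes tested, 0 were called where 2.68% of the 9091 genes tested were, 0 had an unadjusted p under 0.05, and DESeq2 called 0. The effect of slick oil did not pass the test of a difference between 48 and 24 hpf for any of the 4 genes in that fit, the differences being 0.37 (OLIG2), -0.02 (SOX10), -0.04 (ERBB3) and -1.25 (MAG, 95% interval -3.48 to 0.97) on the log2 scale. In that test 0 of 9498 genes were called by edgeR and 0 by DESeq2, with 1078 at an unadjusted p under 0.05.

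At 72 hpf both oils were set against the same 3 source-series controls, so the comparisons share those libraries. MAG had 3.67, 5.99 and 7.96 CPM in source oil and 10.1, 8.30 and 6.94 CPM in slick oil, against 5.92, 6.22 and 10.3 CPM in controls. All 3 groups overlapped, with log2 fold changes of -0.33 in source oil (95% interval -0.98 to 0.33, adjusted p = 0.531) and 0.18 in slick oil (95% interval -0.38 to 0.74, adjusted p = 0.713). The source-oil interval reaches from 0.506 to 1.26 times the control level, so a change of MAG within that range was not detectable at this depth.

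SOX10 had 76.2, 76.8 and 65.2 CPM in source oil and 61.5, 67.9 and 65.7 CPM in slick oil, against 63.3, 66.9 and 58.5 CPM in controls. In source oil 2 of the 3 libraries lay above all controls, and the log2 fold change of 0.23 (SE 0.11) had an unadjusted p of 0.0492 and an adjusted p of 0.154, while slick oil gave 0.07 (95% interval -0.15 to 0.28, adjusted p = 0.718). ERBB3 had 51.4, 65.9 and 74.3 CPM in source oil and 60.8, 65.0 and 72.3 CPM in slick oil, against 73.3, 73.5 and 60.6 CPM in controls (log2 fold changes of -0.09 and -0.05, adjusted p = 0.679 and 0.820).

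OLIG2 had 3.67, 5.62 and 3.79 CPM in source oil and 3.96, 3.97 and 6.94 CPM in slick oil, against 3.33, 8.55 and 4.63 CPM in controls (log2 fold changes of -0.30 and -0.12, adjusted p = 0.633 and 0.857). CLDN11 had 2, 4 and 2 counts in source oil and 1, 1 and 3 counts in slick oil, against 3, 7 and 1 counts in controls. Of the 4 genes tested, source oil called 0 where 20.4% of the 8983 genes tested were called, with 1 at an unadjusted p under 0.05, and slick oil called 0 where 18.6% of 8972 genes were, with 0 at an unadjusted p under 0.05. DESeq2 called 0 in each.

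Set directly against each other at 72 hpf, slick oil and source oil gave no called difference among the 4 genes tested, where 17.5% of the 8944 genes tested were called (7.61% higher and 9.85% lower in slick oil). No controls entered this test. The concentrations of the oils differed (2.50% and 0.27%), and so did the series the animals belonged to. The part of concentration or series in any difference was not tested. MAG showed the widest gap, with a mean of 8.44 ± 1.57 CPM in slick oil and 5.87 ± 2.15 CPM in source oil (SD, n = 3 each) and a log2 fold change of 0.52 (95% interval -0.07 to 1.12, adjusted p = 0.231). The other 3 genes differed by -0.15 (SOX10), 0.06 (ERBB3) and 0.19 (OLIG2) on the log2 scale, with adjusted p of 0.404 to 0.805. In the authors' deposited tables no adjusted p given for a gene of the 8 was under 0.05. The lowest was 0.221, for SOX10 in the table that compares the 2 sets of 48 hpf controls. Only ERBB3 and SOX10 had an adjusted p in every table. MBP, OLIG1 and CLDN11 had none in any table, and MAG, OLIG2 and CNP had none in most. A missing value is not a result of no change. The authors' controls of slick oil at the earliest age also include a 48 hpf library.

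**Figure D2:**
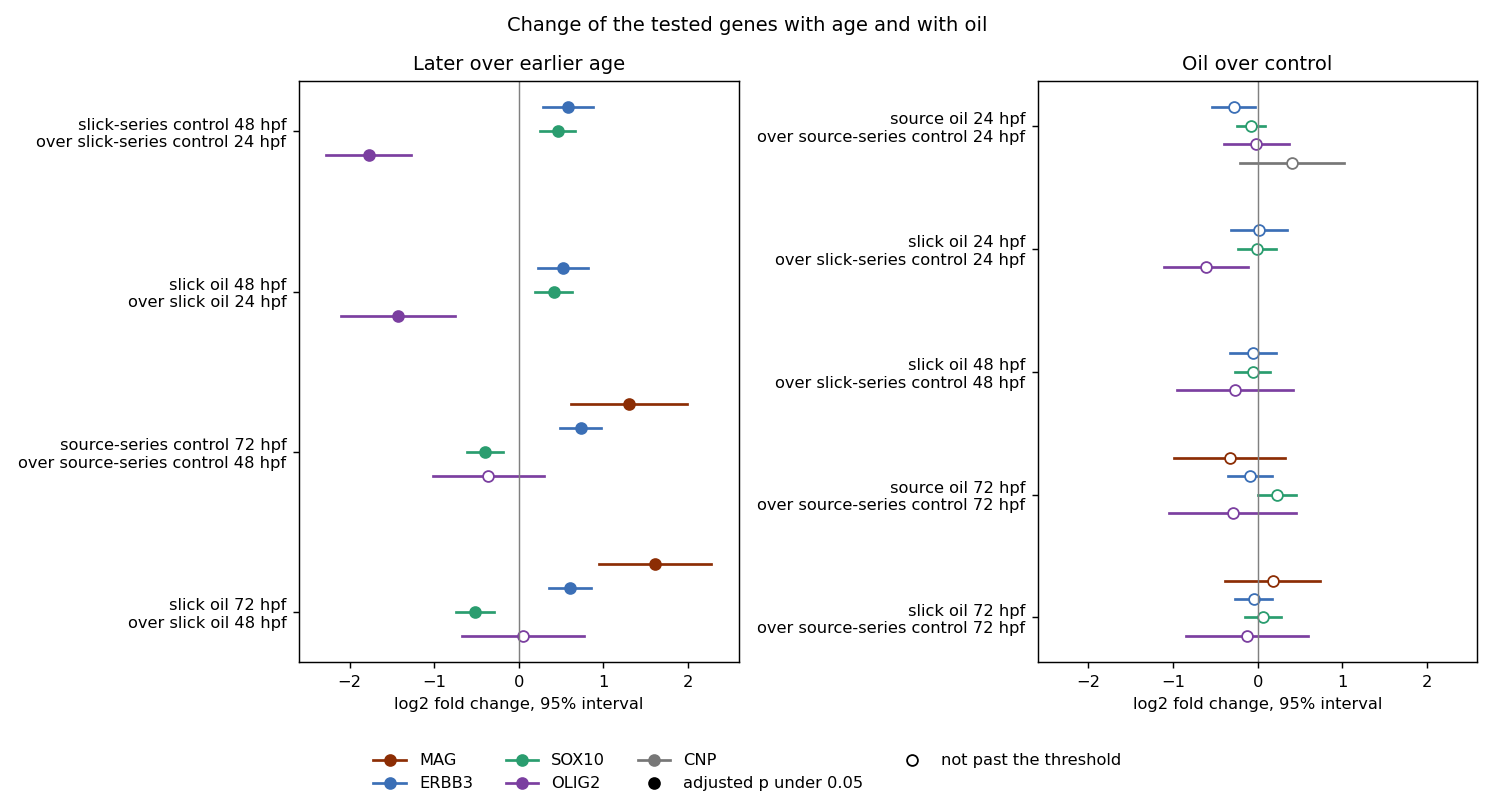
Log2 fold changes with 95% intervals for the genes that passed the filter, by comparison. On the left, later age over earlier age, MAG and ERBB3 lie above 0, OLIG2 lies below 0 at the first step, and SOX10 changes side. On the right, oil over control, all points are open (adjusted p of 0.05 or more), and the intervals of MAG, OLIG2 and CNP are the widest.

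The wider myelin and glial genes give the setting of these changes. Of 13 other myelin membrane proteins, 5 (MOBP, MOG, PLLP, OPALIN and ERMN) had 0 counts in all libraries, as had the astroglial markers GFAP, SLC1A3, S100B and GJA1, and 5 passed the filter in each of the age steps of controls and in each oil comparison at 72 hpf. TSPAN2, a tetraspanin of myelinating cells, was the 1 of those 5 that changed between 48 and 24 hpf in slick-series controls, and it fell (log2 fold change -0.75, adjusted p = 0.0246). Of all genes tested at that step, 47% were called.

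Between 72 and 48 hpf in source-series controls 2 of the 5 membrane proteins rose and 0 fell, where 17.2% of all genes rose and 13.6% fell. Neither of the 2 is made by glia alone: CD9, a widely expressed tetraspanin (0.52 on the log2 scale), and GJB1, a gap junction protein of Schwann cells and liver (0.77). Counts among 5 genes are not a result about the membrane proteins. The median over the 5 was -0.10 at the first step and 0.08 at the second, beside -0.01 over all genes tested at each.

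Enzymes that build myelin lipids were called mostly upward with age. FA2H, which makes hydroxylated fatty acids for myelin and skin lipids, rose by 1.09 between 48 and 24 hpf and by 0.57 between 72 and 48 hpf on the log2 scale, to 101 ± 4.09 CPM at 72 hpf, against 67.6 ± 11.1 CPM at 48 hpf in source-series controls (SD, n = 3 each). UGT8, the galactosyltransferase of galactocerebroside synthesis, rose by 1.37 and 0.96 at the same steps. ASPA, the aspartoacylase of oligodendrocytes, changed only at the later step (1.23, adjusted p = 0.000583), to 14.8 ± 2.50 CPM at 72 hpf, against 6.18 ± 1.80 CPM at 48 hpf. In all 2 of 4 lipid enzymes rose and 0 fell at the first step (23.7% of all genes tested rose), and 3 of 5 rose and 1, CERS2, fell at the second (17.2% rose and 13.6% fell).

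Among the lineage transcription factors more fell than rose at each step, and EGR2 was the 1 that rose at both. EGR2, which drives myelination in Schwann cells and also marks hindbrain segments, was higher at each step (1.19 and 1.44 on the log2 scale) and had 47.2 ± 1.55 CPM at 72 hpf, against 17.3 ± 1.25 CPM at 48 hpf in source-series controls (SD, n = 3 each). POU3F1, a factor of promyelinating Schwann cells and of the early brain, had 254.9 ± 15 CPM at 48 hpf and 792.3 ± 20.4 CPM at 24 hpf (log2 fold change -1.63, adjusted p = 7.77e-17). ZNF488, a zinc-finger factor of the oligodendrocyte lineage, had 6.42 ± 1.07 CPM at 48 hpf (SD, n = 3) and 28.9 ± 1.11 CPM at 24 hpf (n = 2) in slick-series controls (log2 fold change -2.15, adjusted p = 1.33e-09). The related zinc-finger factors MYT1 and ST18, present in neurons and oligodendrocyte precursors, changed by -0.82 and -0.93 at the first step and by -0.56 and -0.47 at the second.

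Of 14 such factors tested, 3 rose (EGR2, SOX6 and TCF7L2) and 7 fell between 48 and 24 hpf (23.7% and 23.3% of all genes), and of 13 tested, 1 rose and 6 fell between 72 and 48 hpf (17.2% and 13.6%). NKX2-2, NKX6-1 and NKX6-2, homeodomain factors of the ventral neural tube, fell by 1.51, 1.00 and 1.00 between 48 and 24 hpf. NKX2-2 passed the filter on low counts between slick oil and controls at 24 hpf, but not between 72 and 48 hpf under slick oil. Its passing the filter at the first step may therefore be tied to its higher level at 24 hpf. The hedgehog list fell in part at the same steps, with 1 of 6 genes higher (DISP1) and 3 lower (SHH, SMO and GLI2) at the first and 0 higher and 3 lower (PTCH1, SMO and GLI2) at the second.

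Among receptors and ligands 3 of 9 were called at each step in controls, while genes of the node of Ranvier were called in controls at the first step alone. LINGO1, an inhibitor of oligodendrocyte differentiation found on neurons and glia, ADGRG6, the adhesion receptor that starts Schwann cell myelination, and the neuregulin NRG2 were the 3 of 9 that rose between 48 and 24 hpf (1.37, 1.98 and 0.75 on the log2 scale), and 0 fell, where 23.7% of all genes rose and 23.3% fell. ADGRG6 did not pass the filter on low counts between slick oil and controls at 24 hpf. It entered the test of age through its 48 hpf libraries, so its passing the filter is tied to the rise. Of 9 genes of the node of Ranvier and axon-glia contact, 5 rose and 1 fell at this step, SCN8A, the nodal sodium channel, with 552.8 ± 15.5 CPM at 48 hpf and 270.4 ± 13.9 CPM at 24 hpf in slick-series controls. CNTN2, an axonal adhesion protein, was the one that fell (-1.17). None of the 9 node genes passed the edgeR test between 72 and 48 hpf in source-series controls, where their log2 fold changes ran from -0.22 to 0.21. Under slick oil 2 of the 9, KCNA1 and KCNA2, were higher at that step (0.28 and 0.32, adjusted p = 0.032 and 0.012) and 0 were lower, where 41.2% of all genes were called. In source-series controls 1 of the 9 receptors and ligands rose at that later step, ERBB2, the partner that ERBB3 needs to signal (0.40 on the log2 scale, adjusted p = 0.00665). The 2 that fell were LINGO1 and the lysophosphatidic acid receptor LPAR1 (-0.41 and -0.99), where 17.2% of all genes rose and 13.6% fell. Shares of 9 genes this close to those of all genes are not a result about the receptors and ligands. ERBB2 and ERBB3 were thus both higher at 72 hpf than at 48 hpf in source-series controls.

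Markers of other cells moved with age too. Of the 12 neuron markers, 6 (STMN2, NEFM, NEFL, INA, TUBB3 and MAPT) had 0 counts in every library outside the 24 hpf source-oil table. The summed level of the 12 was 1058 to 1134 CPM in slick-series controls at 48 hpf and 609.5 to 633.1 CPM at 24 hpf. Of the 5 tested, 4 were higher at 48 hpf and 1 lower (23.7% and 23.3% of all genes). The lower one was ELAVL3, an RNA-binding protein of neurons (107.2 ± 7.01 CPM at 48 hpf, n = 3, and 254.1 ± 5.57 CPM at 24 hpf, n = 2, SD, log2 fold change -1.23, adjusted p = 7.28e-13). At the second step the sums overlapped, with 1072 to 1179 CPM in source-series controls at 72 hpf and 1037 to 1077 CPM at 48 hpf, and 2 of 5 were higher and 1 lower (17.2% and 13.6% of all genes). The summed level of the 9 neural crest and pigment markers was 1051 to 1270 CPM in slick-series controls at 48 hpf, against 636.9 to 705.1 CPM at 24 hpf, and 804.1 to 822.5 CPM in source-series controls at 72 hpf, against 1246 to 1377 CPM at 48 hpf, so in these controls it rose and fell at the same steps as SOX10. TYRP1, a melanin enzyme, carried much of this (2.42 and -1.75 on the log2 scale at the 2 steps). Under slick oil the sum rose from 637.6 to 692.7 CPM at 24 hpf to 824.1 to 980.5 CPM at 48 hpf. At 72 hpf it was 718.4 to 976.7 CPM, overlapping with 48 hpf, while SOX10 fell (-0.52 on the log2 scale). Of the 4 radial glia and astroglia markers tested, 1 rose and 3 fell at the first step and 1 rose and 1 fell at the second, beside the same shares of all genes. Counts of so few markers are not a result about these cell types. At the second step GLUL, the glutamine synthetase of astroglia and other tissues, had 3536 ± 152.2 CPM at 72 hpf and 1656 ± 169.3 CPM at 48 hpf in source-series controls. FABP7 of the same list fell (-0.61 on the log2 scale, adjusted p = 0.0102 in edgeR), with 16.5 ± 2.11 CPM at 72 hpf and 25.2 ± 3.73 CPM at 48 hpf. The part of pigment cells, neurons or astroglia in the values of the 8 genes was not tested.

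Under oil at 72 hpf the wider lists showed calls. None of the 4 genes tested of the 8 was called, where 20.4% of all genes were in source oil and 18.6% in slick oil. With only 4 genes tested, that lack of calls is not a result about the 8 genes. In source oil 3 of 13 lineage factors fell, TCF7L2, a Wnt effector of oligodendrocyte differentiation (-0.44 on the log2 scale, adjusted p = 0.00142), ST18 (-0.37) and SOX9 (-0.30), and 1 rose, EGR2, which had 67.6 ± 9.40 CPM in source oil and 47.2 ± 1.55 CPM in controls (0.54, adjusted p = 0.00174). The share called in this comparison was 9.04% lower and 11.4% higher over all genes. FA2H and CERS2, a ceramide synthase, rose in source oil (0.39 and 0.51), 2 of the 4 lipid enzymes tested. CNTN1, an axonal contactin, fell by 0.43, 1 of 9 node genes. Of 9 receptors and ligands, ERBB2 rose (0.35, adjusted p = 0.0205) and LINGO1 fell (-0.37, adjusted p = 0.0419), and the 6 hedgehog genes gave log2 fold changes of -0.09 to 0.27 with no call.

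Some neuron markers also fell in source oil at 72 hpf, 3 of 5 tested, where 9.04% of all genes were lower and 11.4% higher. SYT1, SNAP25 and SV2A, proteins of synaptic vesicles and their release, gave -0.32, -0.26 and -0.30 on the log2 scale. The summed level of the 12 neuron markers was 881.6 to 953.7 CPM in source oil, against 1072 to 1179 CPM in controls, with no overlap. SV2A, SNAP25 and SYT1 had means of 405.4, 266.0 and 59.9 CPM within the mean sum of 914.6 CPM in source oil. The sum is therefore largely the same 3 genes and is no separate support. GLUL rose by 0.34, 1 of 4 astroglial markers, and none of 8 crest and pigment markers tested passed. Counts of so few markers are not a result about neurons, astroglia or pigment cells. Their part in the changes of TCF7L2, ST18 and CNTN1 was not tested.

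Slick oil at 72 hpf was set against the same controls as source oil, so calls repeated in both are not independent. FA2H, CNTN1, SNAP25 and TSPAN2 were called in the same direction in both oils. The other calls in slick oil below were not made in source oil. Of the 5 membrane proteins tested, 2 were lower, TSPAN2 (-0.99, adjusted p = 0.0432) and CD9 (-0.41, adjusted p = 0.0250), and 0 were higher, where 10.1% of all genes were lower and 8.55% higher. In source oil TSPAN2 was the 1 of 5 called (-1.04, adjusted p = 0.0290). TSPAN2 did not pass the filter on low counts between the oils at this age, so it entered both tests with the help of the control libraries. Its passing the filter is therefore tied to the lower level in oil, and these counts are no support for it. FA2H had 134.8 ± 5.49 CPM in slick oil and 101 ± 4.09 CPM in controls (0.43, adjusted p = 0.000630). The node genes SCN8A and SPTBN4, a nodal spectrin, were higher (0.38 and 0.46), 2 of 9, and CNTN1 was lower (-0.40), 1 of 9. The ligand NRG2 (0.40), 1 of 8 receptors and ligands, and PTCH1 and GLI2, 2 of 6 hedgehog genes, were higher too. These controls belong to the source series. Over the 9 node genes the median was 0.24 here, and -0.21 in source-series over slick-series controls at 48 hpf. The part of the series in these calls was not tested. None of 13 lineage factors passed the edgeR test, with log2 fold changes of -0.61 to 0.17. Among markers of other cells SNAP25 was lower (-0.31) and TYRP1 higher (0.40, with overlapping groups).

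At 24 and 48 hpf few list genes were called, as were few of all genes (5.42% in source oil at 24 hpf, 2.19% in slick oil at 24 hpf and 2.68% in slick oil at 48 hpf). In source oil at 24 hpf CD9 (-0.47, 1 of 8 membrane proteins), the pigment genes PMEL and TYR (-0.44 and -0.41) and GLUL (0.35) passed the test, and in slick oil at 48 hpf the pigment genes TYR and DCT did (-0.60 and -0.47). In slick oil at 24 hpf no gene of the 9 lists passed the edgeR test.

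**Figure D3:**
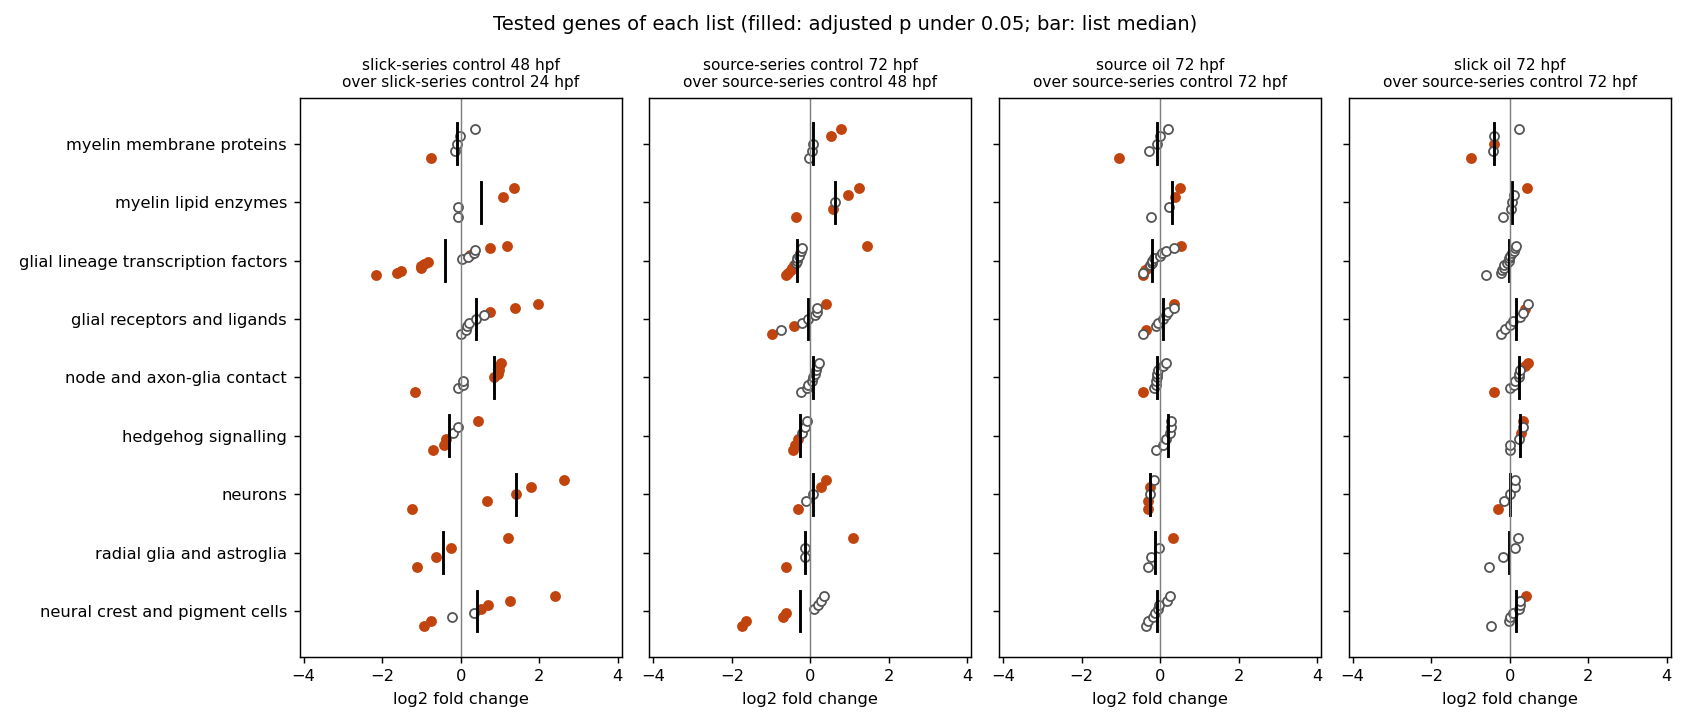
Log2 fold changes of the tested genes of 9 lists (rows) in 4 comparisons (panels), with filled points for genes with an adjusted p under 0.05 and a bar at each list's median. With age the points spread widely, ZNF488 lying at -2.15 in the first panel and EGR2 at 1.44 in the second, while under both oils at 72 hpf nearly all points lie within 1 log2 unit of 0.

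MBP had 0 counts, so SOX10 was used to look for genes with a like pattern. Over the 23 libraries outside the 24 hpf source-oil table and 10244 genes with a mean of at least 1 CPM, the levels most like that of SOX10 were those of the growth factor TGFB3 (Pearson r of 0.883 on log2(CPM + 1)), the sulfate donor enzyme PAPSS2 (0.878), the secreted guidance factors SEMA3A (0.876) and SEMA3G (0.875), and the palmitoyltransferase ZDHHC8 (0.874). TGFB3, for example, had a mean of 83.8 CPM in slick-series controls at 48 hpf and 66.1 CPM at 24 hpf, and 57.1 CPM in source-series controls at 72 hpf against 87.3 CPM at 48 hpf. These correlations follow the ages that the libraries share and are given as a description.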

How the data were processed

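Deposited were 6 tables, each for 1 comparison of oil with control. Their library columns hold the authors' raw read counts per human symbol, judged from values that are whole and sum differently by library. Their log2 fold changes, p-values and adjusted p-values come from a DESeq2 fit by the authors, per the file headers. The submitters' processing notes name HTSeq, DESeq2 and the human build hg19. How fish reads came to carry human symbols is not stated in any source used here.

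Columns were matched to samples by the library names in their headers. Of 37 columns 1, placed as a control of source oil at 24 hpf, matched no sample and was not used, and 6 libraries that stand in more than 1 table were counted once. Across symbols the mean log2(CPM + 1) of controls correlated at 0.806 between the 24 hpf source-oil table and the slick series, against 0.994 between the series at 48 hpf. Each of 12 comparisons was fitted alone in edgeR 4.0.16 (R 4.3.3) on the groups compared, with TMM scaling, filterByExpr (minimum count 10) and Benjamini-Hochberg adjustment. The SE is the size of the log2 fold change divided by the root of F, and 95% intervals use the t quantile of the fit. CPM levels share 1 scaling over the 23 libraries outside the 24 hpf source-oil table and 1 within it. Ratios of few counts have exact Clopper-Pearson intervals (scipy 1.17.1), which cover counting error only. In simulated data for source oil at 72 hpf (8983 genes), 91 of 110 genes changed 2-fold and 90 of 90 changed 4-fold were recovered. For slick oil at 24 hpf (8962 genes) 83 of 104 and 93 of 96 were. False calls were 10 of 191 calls and 11 of 187. Recovery of smaller changes, or of genes with few counts taken alone, is not given. Alternatives were DESeq2 1.42.0, RLE scaling, no filter, 1 fit of all groups, each library left out, and the replicate block.

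The genes and lists were chosen with earlier results of these data known. The rule named the 8 genes, and, per comparison, up to 6 called genes with the smallest adjusted p from the wider lists and 6 from the lists of other cells; further list genes named in the text were chosen after their values were seen. The listed symbols C11orf9, GPR126 and GPR56 are older names with no row, and MYRF, ADGRG6 and ADGRG1 stood for them. Some genes of the wider lists are not reported here, and the counts of those lists leave them out.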

Additional observations from a re-analysis of the deposited data

Results flagged for a closer look

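Among the wider lists, 16 of 61 genes tested differed between slick oil and source oil at 72 hpf in the direct edgeR test of the oils, where 17.5% of all genes did. None of the 4 tested of the 8 glial genes did, and 4 genes are too few to set against the lists. Of the 16 list genes, 14 were higher in slick oil and 2 lower, where 7.61% of all genes tested were higher and 9.85% lower. On the log2 scale the differences for genes of glia and their axons were 0.49 for SCN8A, 0.47 for TCF7L2, 0.47 for NRG2, 0.40 for SPTBN4, 0.37 for ST18, 0.37 for NRCAM, 0.31 for MYT1, -0.38 for EGR2 and, for the lipid enzyme CERS2, -0.43. For markers of other cells they were 0.64 for TFAP2A, 0.59 for TYRP1, 0.57 for TYR, 0.46 for SYT1, 0.36 for SLC1A2, 0.32 for SV2A and 0.30 for ELAVL4. TCF7L2 had 471.6 ± 42.4 CPM in slick oil and 344.1 ± 35.4 CPM in source oil, and SCN8A had 587.2 ± 39.1 CPM in slick oil and 423.5 ± 51.1 CPM in source oil (SD, n = 3 each). The libraries of the 2 oils did not overlap for these genes except for TYR and TYRP1. These genes were picked by their calls, so that lack of overlap is no separate support. Unexposed animals of the series also differed at 48 hpf. NRCAM was lower in source-series than in slick-series controls (-0.44, adjusted p = 0.00836 in edgeR), 1 of 9 node genes, where 4.45% of all genes were called. The list medians there were -0.21 (node), -0.22 (neurons), -0.19 (lineage factors) and 0.19 (crest and pigment). The part of the series in the differences between the oils was not tested. The oils were used at 2.50% and 0.27%, and the library index numbers in the headers of the slick-oil columns repeat those of other libraries; whether they were sequenced in a separate run is not given in the sources used here.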

How the results depend on the processing

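Of 12 called changes of the 8 genes, all with age, 118 of 123 alternatives kept direction and call and 5 lost the call; of 31 changes not called, 302 of 331 alternatives kept the direction without a call, 1 gained a call and 28 turned direction. The cause was not tested where a value moved, other than by fewer or added libraries. DESeq2 called 351 genes in source oil at 24 hpf (edgeR 531), 1177 in source oil at 72 hpf (1833), 105 in slick oil at 24 hpf (196), 957 in slick oil at 72 hpf (1673) and 962 between slick and source oil at 72 hpf (1562). One fit of all groups called 425 genes in slick oil at 48 hpf (244) and gave -0.0085 for ERBB3 in slick oil at 24 hpf. With the 48 hpf library added to the 24 hpf slick-series controls, 17 genes were called in slick oil at 24 hpf, 0 of the 8 genes (against 3) and 0 of all genes (against 4311) between 48 and 24 hpf controls by edgeR, ERBB3 turned to -0.24 in slick oil at 24 hpf, and the difference of the slick-oil effect between 48 and 24 hpf turned to 0.34 (MAG), 0.14 (SOX10), -0.10 (OLIG2) and 0.22 (ERBB3). The replicate block could be fitted at 24 hpf alone, since headers at other ages carry other numbers. Same-numbered source-series libraries correlated in their deviations at 0.136, 0.0157 and 0.123, while replicate 2 fitted control 3 better (0.0885). With 3 libraries per group these values cannot decide whether the numbers pair the samples. The block called 852 genes in source oil at 24 hpf (531 without it) and 196 in slick oil. It called 0 of the glial genes in each and changed no other call. With 1 library left out at a time, all-gene counts ran from 344 to 571 in source oil at 24 hpf, 63 to 489 in slick oil at 24 hpf (0 to 1 of the 8), 102 to 941 in slick oil at 48 hpf, 96 to 1202 between the 48 hpf controls (405 with all libraries) and 0 to 190 for the difference of slick-oil effects. Log2 fold changes that turned ran from -0.17 to 0.16 (OLIG2) in source oil at 24 hpf; -0.56 to 0.15 (OLIG2) and -0.22 to 0.031 (ERBB3) in source oil at 72 hpf; -0.051 to 0.035 (SOX10) and -0.087 to 0.12 (ERBB3) in slick oil at 24 hpf; -0.14 to 0.041 (ERBB3) in slick oil at 48 hpf; -0.44 to 0.31 (OLIG2) and -0.14 to 0.0077 (ERBB3) in slick oil at 72 hpf; -0.27 to 0.32 (OLIG2) between slick-oil ages 72 and 48 hpf; -0.071 to 0.18 (ERBB3) and -0.12 to 0.41 (OLIG2) between the oils; and -0.17 to 0.0094 (SOX10) and -0.18 to 0.059 (ERBB3) for the difference of slick-oil effects. Depth limits MAG, OLIG2, CLDN11 and CNP most: their libraries held at most 29, 94, 7 and 32 counts.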
